A study of Homo sapiens with 9 samples.

Results

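Integrins and laminins are the receptors and ligands through which epithelial and carcinoma cells hold on to the basement membrane. The genes were chosen as the protein-coding genes of the deposited table whose symbol is that of an integrin α subunit, an integrin β subunit or a laminin α, β or γ chain. The rule used no measured value, though it was chosen with earlier results of these data known. It found 38 of the 58735 genes of the table, and 37 of them are described here, 18 integrin α, 8 integrin β and 11 laminin genes. All RNA came from MIA PaCa-2, an established line of human pancreatic carcinoma cells, labelled WT for genotype in each group. The cells had received the ERK inhibitor SCH772984 at 1 μM, the TBK1 and IKKε inhibitor compound 1 at 1 μM, or the vehicle dimethyl sulfoxide (DMSO) at 0.1%, in each case for 24 h, and 3 libraries were sequenced per treatment. The labels do not say whether replicates were separate cultures, so p-values measure the spread between these libraries, which may be technical. All groups are 1 cell line at 1 dose and 1 time, and the study asked which transcripts depend on ERK and which on TBK1 and IKKε.

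An integrin is a heterodimer of 1 α and 1 β subunit that spans the plasma membrane, binds the extracellular matrix outside the cell and is coupled to actin or to keratin filaments inside it. The β1 subunit has many α partners, among them α3 and α6 in laminin receptors and α5 in the fibronectin receptor, while αv pairs with several β subunits in receptors for RGD-containing ligands such as vitronectin. The β4 subunit pairs with α6 in hemidesmosomes, and the β2 and β7 subunits with their partners are mostly leukocyte receptors. A laminin is a heterotrimer of 1 α, 1 β and 1 γ chain that polymerizes into the basement membrane, and the chain combination sets which integrins bind it.

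Library totals were 9464432 to 10286223 counts with DMSO, 9652741 to 9840769 with compound 1 and 11056977 to 13887859 with SCH772984. Replicates differed by more than sampling noise in every group, and compound 1 replicate 1 stood apart from its group, with chi-square values per degree of freedom of 10.1 and 7.61 against the other two compound 1 libraries, which had 2.66 between them. Calls and the main log2 fold changes with compound 1 are therefore also given without that library. SCH772984 lowered 12 of the 13 tested genes on a list of known ERK output genes, beside 35.5% of all genes tested, and 6 of the 7 that passed the filter on low counts in both treatments. Among the 12 were the feedback inhibitor SPRY4, which went from 226 to 236 CPM (the count scaled to the depth of its library) with DMSO to 1.58 to 2.75 CPM (log2 fold change -6.81), and the ERK phosphatase DUSP6, which went from 2.76 to 5.58 CPM to 0 to 0.084 CPM and passed that filter only through DMSO. EPHA4 rose (1.48). The line expressed keratins (KRT8, 2415 to 2554 CPM with DMSO) and vimentin (VIM, 2405 to 2579 CPM), while the epithelial adhesion molecule EPCAM was at 0 in all 9 libraries.

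Of the 37 genes, 21 were expressed in DMSO-treated cells at a mean of 1 CPM or more after TMM normalization, which is 56.8%, beside 56.4% of all protein-coding genes. The expressed genes were 7 integrin α, 5 integrin β, 4 laminin α, 3 laminin β and 2 laminin γ genes. Per kilobase of exon (RPKM, computed from the counts and the gene length in the table), ITGB1 stood far above the rest at 219 ± 5.86 RPKM (SD, n = 3). ITGA3, the α subunit of a laminin receptor, followed at 52.3 ± 3.28 RPKM, then ITGB4 at 28.8 ± 2.29, LAMC1 at 25.5 ± 1.33, ITGAV at 19.1 ± 0.70 and ITGB5 at 14.5 ± 0.35 RPKM. ITGB4 lay above LAMC1 in every DMSO library, but by little more than the spread between libraries (27.3 to 31.4 against 24.0 to 26.6 RPKM).

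Further down came ITGA6 (12.5 RPKM), ITGA5 (9.21), LAMB2 (7.02), LAMA5 (6.40), ITGAE (2.61) and LAMB1 (1.04). LAMB2 and LAMA5 could not be ordered, since their DMSO libraries overlapped at 5.69 to 8.28 and 5.93 to 6.72 RPKM. The remaining expressed genes, LAMA2, LAMB3, ITGA10, LAMC3, LAMA4, ITGB2, ITGAM, ITGB8 and LAMA3, were each below 1 RPKM (0.882 RPKM for LAMA2 down to 0.0866 RPKM for LAMA3). Each class of chain thus had a leading gene per kilobase. ITGA3 made up 54.0% ± 0.78 of the summed integrin α RPKM, ITGB1 83.4% ± 0.49 of integrin β, LAMA5 83.9% ± 1.57 of laminin α, LAMB2 79.1% ± 4.92 of laminin β and LAMC1 98.7% ± 0.37 of the laminin γ genes described (SD, n = 3).

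The 16 genes under 1 CPM with DMSO were ITGAD, ITGA7, ITGA2B, ITGA2, ITGA9, ITGAX, ITGA11, ITGA4, ITGA1, ITGA8, ITGAL, ITGB3, ITGB7, ITGB6, LAMB4 and LAMA1. Several are best known from other tissues, such as ITGA2B and ITGB3 of platelets, ITGAL and ITGAX of leukocytes and LAMA1 of the embryo. LAMA1 had 0 counts in all 9 libraries, which allows up to 3 counts per library, a limit that covers counting error only. Of the markers of leukocytes, which express several of these integrins, PTPRC and CD3E were at 0 in all 9 libraries, and all 10 summed to 3.28 to 4.60 CPM with DMSO, 2.39 to 4.31 with compound 1 and 1.18 to 1.88 with SCH772984. CD14 was the 1 leukocyte marker tested, and it fell with SCH772984 (2.36 to 3.06 CPM with DMSO, 0.76 to 1.48 with SCH772984, where 2 of 3 libraries reached the filter on low counts).

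**Figure D1:**
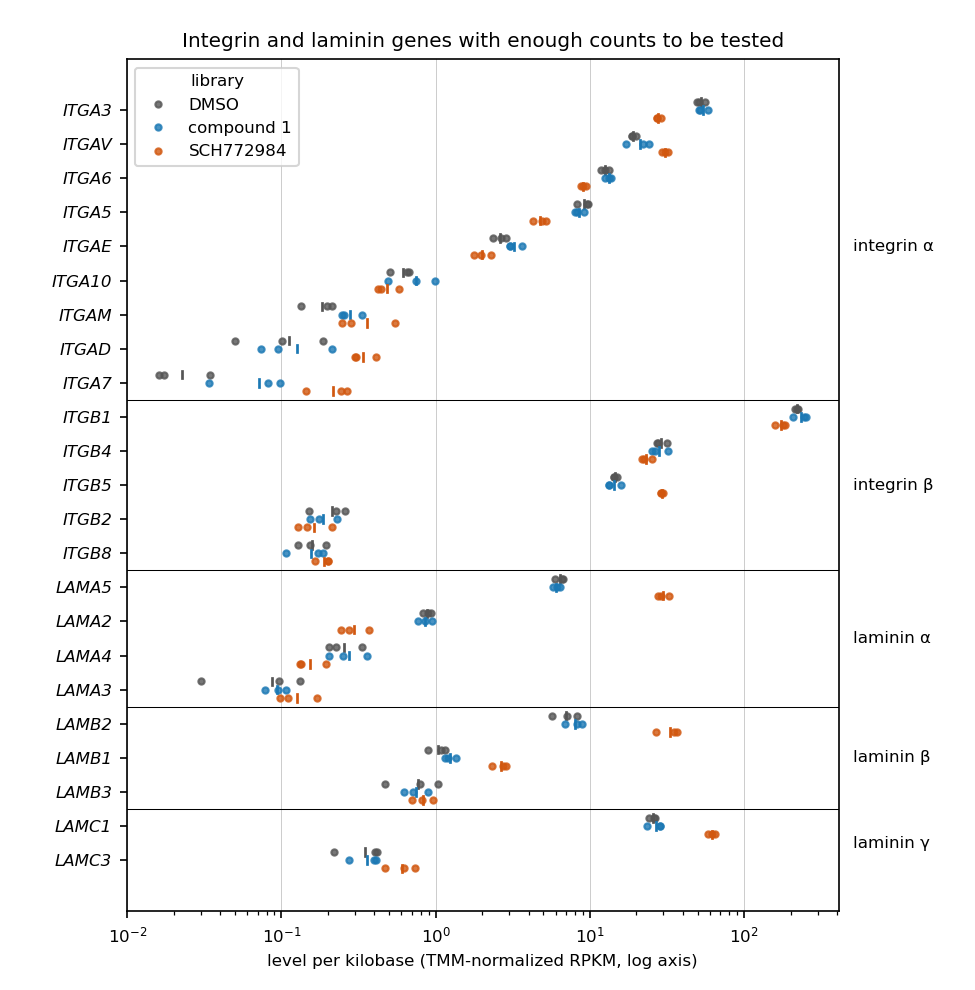
Level of each gene with enough counts to be tested, in TMM-normalized RPKM on a log axis, with 1 point per library, colour for the treatment and a short bar for the mean of 3 libraries. ITGB1 lies above 150 RPKM in every library, and LAMA5, LAMB2, LAMB1, LAMC1 and LAMC3 are the laminin genes whose SCH772984 libraries lie to the right of all others.

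SCH772984 raised the RNA of the laminin chains that MIA PaCa-2 cells already expressed most and lowered that of LAMA2. Among the well expressed integrins it lowered the RNA of the subunits of the laminin and fibronectin receptors and raised that of ITGAV and ITGB5. Protein was not measured in these libraries. Of the 37 genes, 23 passed the filter on low counts, and 18 of these were called at an adjusted p under 0.05 (edgeR quasi-likelihood test with Benjamini-Hochberg adjustment over 13834 genes), 10 higher and 8 lower. In the same comparison 72.8% of all genes tested were called, 37.2% higher and 35.5% lower, so the count alone does not set integrins and laminins apart. When calls were limited to changes of 2-fold or more, 7 genes were higher and 1 lower, beside 18.2% and 10.6% of all genes. The median log2 fold change was 0.79 over the 9 laminin genes tested and -0.33 over the 14 integrin genes, beside 0.03 over all genes. ITGA7 and ITGAD passed the filter on low counts only through SCH772984, in which they were high, so that a difference was part of their passing. Without these 2 genes 16 of 21 were called, 8 higher and 8 lower, of which 5 were higher and 1 lower by at least 2-fold. Scaling by library totals instead of TMM moved the median of all genes up by 0.17 on the log2 scale. It reversed no call among the 18, but ITGAE (adjusted p = 0.16) and LAMA4 (0.10) were no longer called.

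**Figure D2:**
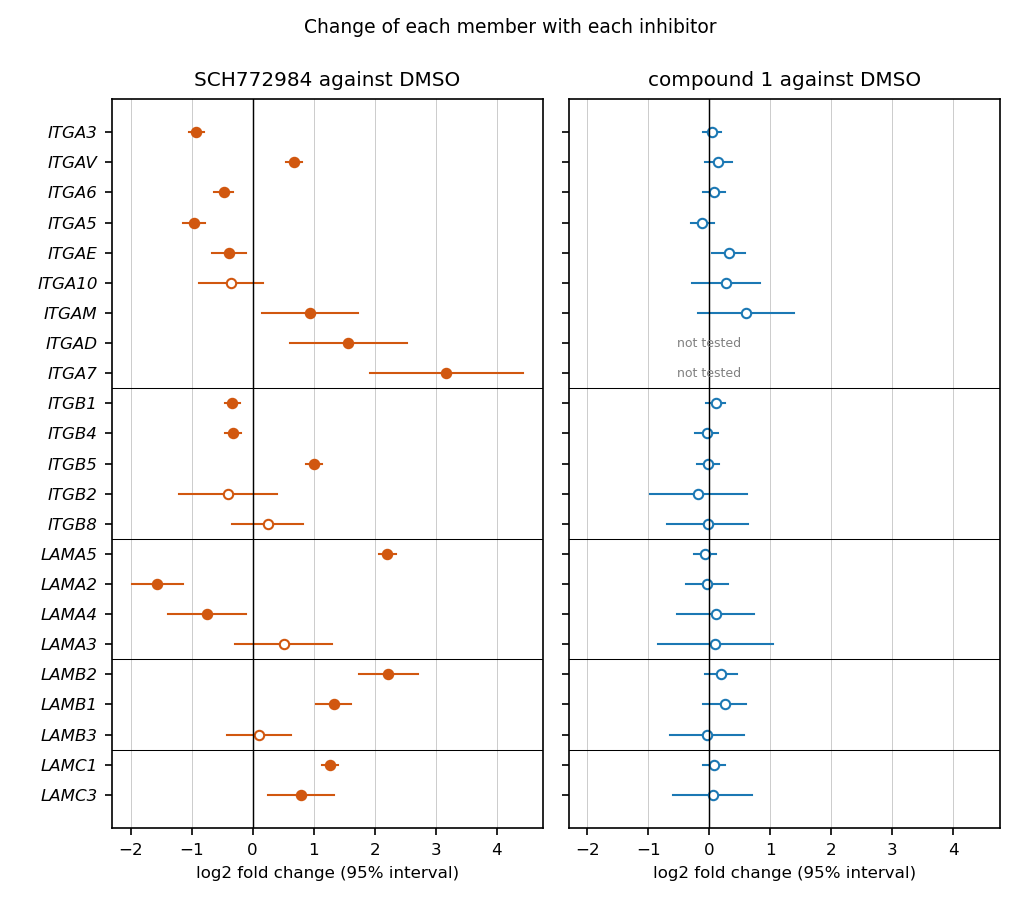
Log2 fold change against DMSO with its 95% interval for SCH772984 (left) and compound 1 (right), from edgeR's quasi-likelihood fits, with filled points for an adjusted p under 0.05 and open points for the rest. Filled points occur only with SCH772984, where LAMB2 and LAMA5 lie near 2.2 and LAMA2 near -1.6, whereas the compound 1 estimates lie between -0.18 and 0.60.

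Among the laminin α genes, LAMA5, whose chain is the most widespread α chain of adult basement membranes, rose and LAMA2, whose chain is typical of muscle and nerve, fell. LAMA5 measured 93.8, 84.7 and 96.0 CPM with DMSO and 393, 413 and 465 CPM with SCH772984, a log2 fold change of 2.21 ± 0.07 (SE; adjusted p = 3.2e-29). LAMA2 measured 8.51, 9.61 and 9.30 CPM with DMSO and 2.83, 2.53 and 3.83 CPM with SCH772984 (-1.56 ± 0.21; adjusted p = 6.6e-09). The libraries of these 2 genes did not overlap between treatments, as was so for 74.3% of all genes tested, and the changes ran in opposite directions. The fall of LAMA4, a chain of vessel walls, was smaller and less certain (-0.74 ± 0.32; adjusted p = 0.034), from 2.36 to 3.86 CPM to 1.52 to 2.24 CPM. It was no longer called without DMSO replicate 2 (adjusted p = 0.21), SCH772984 replicate 2 (0.099) or SCH772984 replicate 3 (0.094), or with library size alone (0.10). LAMA3 (0.51 ± 0.40; adjusted p = 0.25) did not pass the test.

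Both β chains of the commonest laminins rose. LAMB2 measured 48.7, 39.1 and 56.8 CPM with DMSO and 184, 241 and 252 CPM with SCH772984 (2.22 ± 0.19; adjusted p = 0.00012). LAMB1, which is used with α5 and γ1 as LAMB2 is, measured 9.33, 7.29 and 8.76 CPM with DMSO and 22.2, 23.1 and 19.0 CPM with SCH772984 (1.33 ± 0.14; adjusted p = 3.2e-11). For both genes the lowest SCH772984 library lay above the highest DMSO library by more than the range within DMSO. LAMB3, a β chain of epithelial basement membranes, was 2.19 to 4.86 CPM with DMSO and 3.29 to 4.49 CPM with SCH772984 (0.11 ± 0.26; adjusted p = 0.73), and its libraries overlapped.

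The γ chain genes LAMC1 and LAMC3 also rose. LAMC1, the γ chain of most laminins, measured 223, 202 and 218 CPM with DMSO and 546, 522 and 487 CPM with SCH772984 (1.27 ± 0.06; adjusted p = 2.1e-22). LAMC3 was 1.66 to 3.18 CPM with DMSO and 3.56 to 5.57 CPM with SCH772984 (0.79 ± 0.27; adjusted p = 0.0082), and was not called without DMSO replicate 2 (adjusted p = 0.097) or SCH772984 replicate 2 (0.068).

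Summed over the genes described of each class, the laminin α level was 7.63 ± 0.37 RPKM with DMSO and 30.2 ± 2.60 RPKM with SCH772984, laminin β 8.83 ± 1.10 and 36.4 ± 5.12 RPKM, and laminin γ 25.9 ± 1.44 and 62.3 ± 3.66 RPKM (SD, n = 3). No library of the 2 treatments overlapped in any of these sums. The leading chains took a larger share with SCH772984, LAMA5 98.1% ± 0.33 of laminin α and LAMB2 90.2% ± 2.12 of laminin β, while LAMA2 went from 11.6% ± 1.13 to 0.97% ± 0.14 of laminin α. The 11 laminin genes together held 0.0365% of counts with DMSO and 0.129% with SCH772984. LAMA5 shares 244 bases of exon with ADRM1 and LAMB1 70 bases with DLD, in each case on the opposite strand, and whether counting used the strand is not given in the sources used here. These stretches are 1.71% and 0.86% of the counted lengths. Over the 9 libraries ADRM1 averaged 1243 counts beside 2398 for LAMA5, and DLD 1471 beside 150 for LAMB1. How much the shared stretches add to the counts was not tested.

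**Figure D3:**
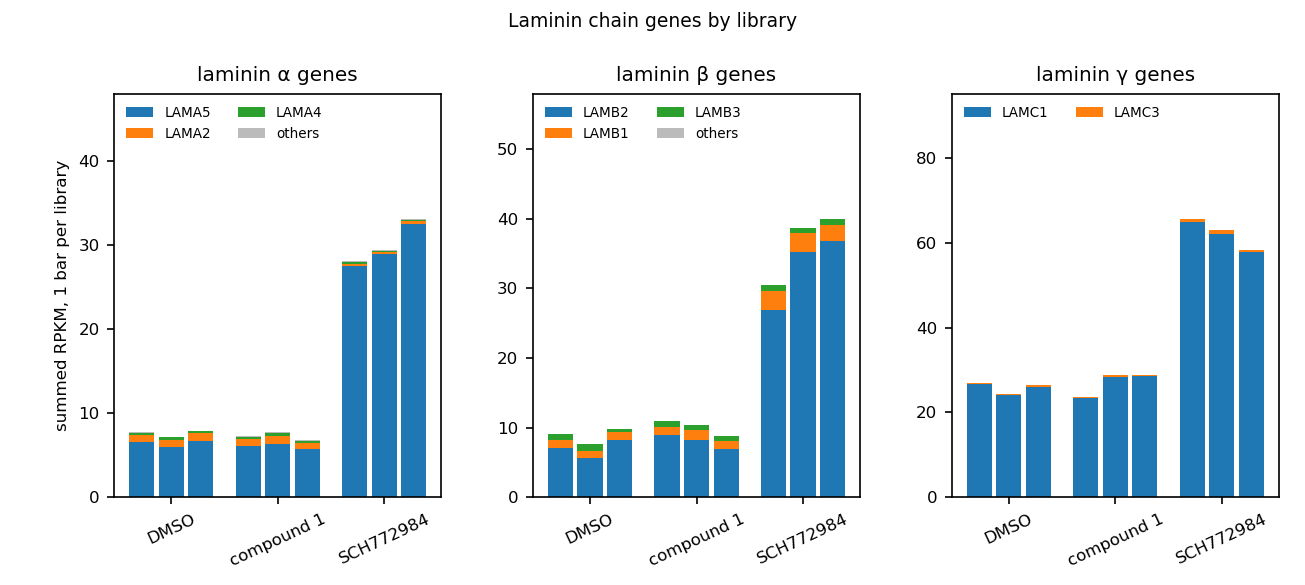
Summed RPKM of the laminin α, β and γ genes described, 1 stacked bar per library, with axes that start at 0 and differ between panels. In the SCH772984 libraries LAMA5, LAMB2 and LAMC1 make up nearly the whole of each bar, and the bars reach 28 to 33, 31 to 40 and 58 to 66 RPKM.

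The sequences before the start sites are shown for the 4 laminin genes that rose at least 2-fold, whose α, β and γ chains can assemble with one another, and for LAMA2, which fell. They come from RefSeq on GRCh38.p14, run 5′ to 3′ and cover up to 250 bases before the RefSeq start, cut where an annotated gene begins. Capitals mark matches, on either strand, to GGGCGG (GC box) or CCGGAA (an ETS core).
LAMA5 promoter, chr20:62367313-62367562, minus strand: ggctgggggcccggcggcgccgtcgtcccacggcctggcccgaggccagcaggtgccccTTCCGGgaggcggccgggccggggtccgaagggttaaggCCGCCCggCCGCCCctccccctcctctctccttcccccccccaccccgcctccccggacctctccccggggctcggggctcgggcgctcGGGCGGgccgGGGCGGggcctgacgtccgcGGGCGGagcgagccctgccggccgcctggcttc
LAMB2 promoter, chr3:49133119-49133300, minus strand: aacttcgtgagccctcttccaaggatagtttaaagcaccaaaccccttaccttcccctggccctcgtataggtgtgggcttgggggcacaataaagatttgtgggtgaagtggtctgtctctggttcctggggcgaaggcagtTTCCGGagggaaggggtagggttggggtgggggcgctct
LAMB1 promoter, chr7:108003256-108003411, minus strand: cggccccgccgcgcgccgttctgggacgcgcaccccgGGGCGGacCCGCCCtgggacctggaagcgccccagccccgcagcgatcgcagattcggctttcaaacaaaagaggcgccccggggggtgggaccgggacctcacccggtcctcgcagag
LAMC1 promoter, chr1:183023170-183023419, plus strand: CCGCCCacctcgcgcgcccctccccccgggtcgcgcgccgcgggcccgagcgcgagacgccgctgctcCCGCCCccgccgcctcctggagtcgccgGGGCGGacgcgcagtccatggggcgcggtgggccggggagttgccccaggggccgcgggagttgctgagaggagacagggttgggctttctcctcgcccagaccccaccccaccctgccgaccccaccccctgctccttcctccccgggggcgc
LAMA2 promoter, chr6:128882888-128883137, plus strand: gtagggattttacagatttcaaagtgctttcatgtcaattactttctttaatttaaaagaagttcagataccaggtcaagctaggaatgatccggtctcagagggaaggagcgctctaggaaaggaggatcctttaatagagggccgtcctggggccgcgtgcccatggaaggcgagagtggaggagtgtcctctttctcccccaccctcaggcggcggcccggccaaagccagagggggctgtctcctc
In the printed stretches LAMA5 holds 5 GC boxes and 1 ETS core, LAMB2 1 ETS core, LAMB1 2 GC boxes and LAMC1 3 GC boxes, and LAMA2 holds no match to any motif searched. AP-1 (TGANTCA), the E-box (CACGTG), the TATA box (TATAAA) and a forkhead motif (TGTTTAC) were searched as well, on both strands, and none of the 5 stretches holds one. Over the 35116 RefSeq windows of 250 bases, 42.6% hold a GC box, 14.5% the ETS core, 6.57% AP-1, 6.34% the E-box, 10.7% the TATA box and 2.98% the forkhead motif. Windows were at hand for 26 of the 37 genes. Of 7 such genes that rose with SCH772984, 6 held a GC box and 3 an ETS core, and of 6 that fell 3 and 2 did. These counts take a match in any window of a gene, and some of the genes have 2 or 3 windows, so they cannot be read against the shares per window. A match is a run of letters and not a measured binding site.

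Among the integrin α genes, those that lead in MIA PaCa-2 cells fell with SCH772984, apart from ITGAV. ITGA3 measured 549, 487 and 502 CPM with DMSO and 267, 265 and 282 CPM with SCH772984 (-0.92 ± 0.06; adjusted p = 7.1e-18). ITGA6, the partner of ITGB1 and ITGB4 in laminin receptors, fell from 77.3 to 86.8 CPM to 56.9 to 61.4 CPM (-0.48 ± 0.08; adjusted p = 3.5e-07). ITGA5, the fibronectin receptor subunit, fell from 62.7 to 74.0 CPM to 32.2 to 39.2 CPM (-0.96 ± 0.09; adjusted p = 1.8e-13). These 3 genes of matrix receptors were lower in every SCH772984 library than in any DMSO library. Libraries did not overlap, in either direction, for 74.3% of all genes tested.

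ITGAV measured 164, 153 and 154 CPM with DMSO and 252, 265 and 240.4 CPM with SCH772984 (0.68 ± 0.06; adjusted p = 5.1e-13). Its share of the summed integrin α RPKM went from 19.8% ± 0.33 to 40.5% ± 1.52, while that of ITGA3 went from 54.0% ± 0.78 to 36.5% ± 1.70 (SD, n = 3). With SCH772984 ITGAV and ITGA3 thus stood at similar levels, 30.8 and 27.7 RPKM on average, and ITGAV was the higher in each of the 3 libraries. The summed integrin α level was 96.8 ± 5.23 RPKM with DMSO and 75.9 ± 0.87 RPKM with SCH772984.

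ITGAE, whose product pairs with that of ITGB7 and binds E-cadherin in lymphocytes, measured 17.5, 18.9 and 15.7 CPM with DMSO and 13.1, 15.3 and 11.7 CPM with SCH772984 (-0.39 ± 0.14; adjusted p = 0.011). It was not called without DMSO replicate 2 (adjusted p = 0.0514), without SCH772984 replicate 3 (0.054) or with library size alone (0.16). ITGAE shares 427 bases of exon, 6.41% of its counted length, with HASPIN on the opposite strand. Over the 9 libraries HASPIN averaged 204 counts and ITGAE 179. Of its partner ITGB7, at most 8 counts were found in any library, and 42.1% of that gene's counted length is shared with ZNF740. The collagen receptor gene ITGA10 (-0.35 ± 0.26; adjusted p = 0.21) did not pass the test.

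Some α genes at the limit of detection were also higher with SCH772984. ITGA7, a laminin receptor subunit best known from muscle, had 1, 1 and 2 counts with DMSO and 11, 20 and 23 with SCH772984. The pooled counts were 54 and 4, and their ratio after scaling to library size was 9.73 (95% exact interval 3.59 to 37.0, counting error only; edgeR adjusted p = 1.7e-05). ITGAD, a partner of the leukocyte subunit β2, had 8, 4 and 2 counts with DMSO and 16, 16 and 27 with SCH772984 (1.57 ± 0.47; adjusted p = 0.0031). It shares 146 bases of exon with a transcript on the same strand, which averaged 13.8 counts over the 9 libraries, beside 9.89 for ITGAD. ITGA7 and ITGAD passed the filter on low counts only through SCH772984, where they were high. A difference was thus part of their passing, and their p-values cannot be read as support for it. ITGAM, another partner of β2, was 0.77 to 1.21 CPM with DMSO and 1.41 to 3.08 CPM with SCH772984 (0.94 ± 0.39; adjusted p = 0.031). It reached the filter level in 2 of the 3 DMSO libraries, and was not called without DMSO replicate 1 (adjusted p = 0.064), DMSO replicate 3 (0.13) or SCH772984 replicate 1 (0.30). In bulk RNA such as this, more expressing cells and more RNA per cell cannot be told apart.

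Of the integrin β genes, ITGB1 and ITGB4 fell and ITGB5 rose. ITGB1 measured 1352, 1316 and 1281 CPM with DMSO and 1082, 1113 and 948 CPM with SCH772984 (-0.34 ± 0.06; adjusted p = 4.8e-06). ITGB4, the hemidesmosome subunit, measured 213, 187 and 184 CPM with DMSO and 147, 151 and 170 CPM with SCH772984 (-0.32 ± 0.07; adjusted p = 5.4e-05). Both falls were about 20%, at 0.793 and 0.800 times the DMSO level. The libraries of both genes did not overlap, as was so for 74.3% of all genes tested. ITGB5, a partner of αv in vitronectin receptors, measured 96.1, 92.6 and 91.7 CPM with DMSO and 187, 193 and 187 CPM with SCH772984 (1.01 ± 0.07; adjusted p = 4.0e-18).

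Through these changes ITGB5 went from 5.52% ± 0.050 to 12.9% ± 0.64 of the summed integrin β RPKM and ITGB1 from 83.4% ± 0.49 to 76.6% ± 2.06. The sum itself was 263 ± 8.30 RPKM with DMSO and 227 ± 13.2 RPKM with SCH772984. ITGB1 stood at 2.26 ± 0.077 times the summed α RPKM with DMSO and at 2.29 ± 0.17 times with SCH772984, a difference within the spread between libraries. ITGB2 (-0.40 ± 0.40; adjusted p = 0.37) and ITGB8 (0.24 ± 0.29; adjusted p = 0.46), which with αv binds latent TGFβ, did not pass the test.

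**Figure D4:**
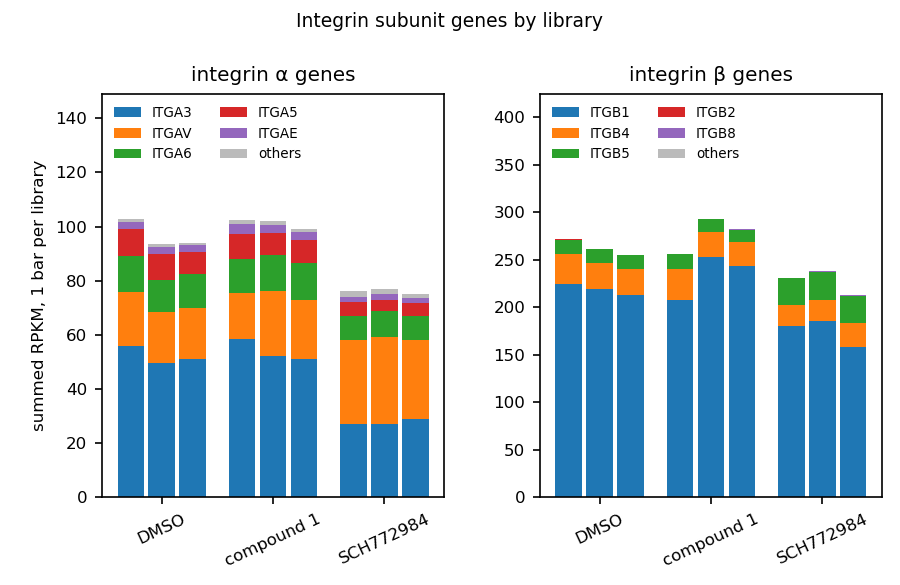
Summed RPKM of the integrin α and integrin β genes, 1 stacked bar per library, with axes that start at 0 and differ between panels. With SCH772984 the ITGA3 and ITGAV segments are of similar height, and ITGB1 remains the largest segment of every β bar.

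The 14 genes left untested between SCH772984 and DMSO had at most 12 counts in any library. Of these, 7 had more than 3 counts in a DMSO or SCH772984 library. ITGA9, an α partner of β1, had 4, 0 and 0 counts with DMSO and 12, 7 and 9 with SCH772984, a ratio of the pooled and scaled counts of 5.05 (95% exact interval 1.77 to 19.8). ITGB7 had 2 counts in the DMSO libraries together and 15 in the SCH772984 libraries (5.41, 1.26 to 48.7), ITGB6 1 and 12 (8.65, 1.28 to 370), ITGA11 2 and 13 (4.69, 1.06 to 42.8) and ITGA2B 6 and 22 (2.64, 1.04 to 7.97). For ITGA11, 10 of the 13 counts came from 1 library. The intervals of ITGA2 (1.20, 0.396 to 4.02) and LAMB4 (2.16, 0.387 to 21.9) included a ratio of 1. These intervals cover counting error only. With SCH772984 23 of the 37 genes (62.2%) reached 1 CPM, against 21 (56.8%) with DMSO, beside 59.5% and 56.4% of all protein-coding genes.

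With all 3 libraries compound 1 moved no integrin or laminin gene past the threshold. Without compound 1 replicate 1, 2 of the 21 genes tested were called, ITGB1 and ITGAV, both higher. In that fit 9.56% of all genes tested were called, so the count does not set these genes apart. With all libraries 0 of the 21 genes were called by edgeR at an adjusted p under 0.05, beside 0.864% of the 12849 genes tested, and DESeq2 also called 0. At an unadjusted p under 0.05 there was 1, ITGAE, beside 15% of all genes. ITGAE measured 24.3, 20.2 and 20.3 CPM with compound 1, above all 3 DMSO libraries (20.9% of all genes tested did not overlap in either direction; 0.32 ± 0.12; unadjusted p = 0.022, adjusted p = 0.24). Without compound 1 replicate 1 ITGAE was at 0.23 (adjusted p = 0.31). The median log2 fold change was 0.07 over the 21 genes and 0.00 over all genes, and 0.08 over the 21 genes without that library.

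Intervals around the DMSO level are given for the genes described library by library. LAMA5 measured 87.5, 90.8 and 82.0 CPM with compound 1, and its 95% interval ran from 0.841 to 1.07 times the DMSO level. LAMC1 measured 196, 239 and 240 CPM (0.929 to 1.19 times), LAMB2 60.9, 56.6 and 47.6 CPM (0.949 to 1.38 times) and LAMB1 9.37, 11.1 and 9.77 CPM (0.936 to 1.52 times). LAMA2 measured 8.83, 9.81 and 7.90 CPM (0.766 to 1.23 times). The libraries overlapped with those of DMSO for LAMA5, LAMC1, LAMB2 and LAMA2, and those of LAMB1 lay just above them. For each of the 5 genes the estimate with SCH772984 lay outside this interval. Without compound 1 replicate 1 the log2 fold changes were -0.077 for LAMA5, 0.16 for LAMC1, 0.12 for LAMB2, 0.30 for LAMB1 and -0.039 for LAMA2, with adjusted p-values of 0.057 (LAMC1) to 0.93 (LAMA2).

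ITGA3 measured 572, 510 and 499 CPM with compound 1 (0.930 to 1.14 times the DMSO level), ITGB4 216, 179 and 171 CPM (0.854 to 1.10 times) and ITGB5 103, 86.3 and 85.8 CPM (0.868 to 1.11 times). ITGB1 measured 1251, 1518 and 1460 CPM (0.964 to 1.20 times) and ITGAV 140, 199 and 181 CPM (0.948 to 1.29 times). In these 2 genes replicate 1 lay below every DMSO library and the other two above the DMSO range. Without compound 1 replicate 1, ITGB1 (0.18; adjusted p = 0.0064) and ITGAV (0.28; adjusted p = 0.0015) were called higher, beside 9.56% of all genes tested in that fit. ITGA3 (-0.017; adjusted p = 0.89), ITGB4 (-0.15; 0.12) and ITGB5 (-0.11; 0.35) were not called there. For the genes under 5 CPM the intervals were wide, such as 0.883 to 2.62 times for ITGAM (0.60 on the log2 scale, and 0.68 without replicate 1, adjusted p = 0.40). ITGA7, not tested here, had 2, 6 and 5 counts with compound 1, a pooled ratio to DMSO of 3.19 (95% exact interval 0.985 to 13.4, counting error only). ITGA2B, also untested, had 9, 3 and 5 counts (2.78, 1.05 to 8.61), and ITGB6 0, 8 and 1 (8.83, 1.22 to 387), nearly all of them in 1 library. The intervals of the untested genes ITGAD (1.12, 0.513 to 2.48), ITGA9 (0.981, 0.183 to 5.27) and ITGA2 (1.96, 0.681 to 6.37) included a ratio of 1, as did that of ITGA7. As with DMSO, 21 genes reached 1 CPM.

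The inhibitors were then compared with each other, which tests the difference that the 2 comparisons with shared DMSO libraries cannot. Of 23 genes tested 18 were called, 9 higher and 9 lower with SCH772984 than with compound 1, beside 66.3% of the 13863 genes tested, 33.7% higher and 32.6% lower. ITGA7 and ITGAD again passed the filter on low counts only through SCH772984, and without them 16 of 21 were called, 7 higher and 9 lower. LAMA5 (2.29 ± 0.09), LAMB2 (2.04 ± 0.12), LAMC1 (1.20 ± 0.09), LAMB1 (1.09 ± 0.14) and ITGB5 (1.04 ± 0.09) were at least 2-fold higher with SCH772984, each with an adjusted p of 1.32e-06 or less. These 5 genes higher and 1 lower by at least 2-fold stood among 21 tested genes, beside 16.5% and 10.1% of all genes, with ITGA7 and ITGAD left out. ITGAV was also higher (0.54 ± 0.11; adjusted p = 0.00013). LAMA2 (-1.51 ± 0.22; adjusted p = 3.3e-06) was at least 2-fold lower.

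The matrix receptor subunits ITGA3 (-0.96 ± 0.08; adjusted p = 1.8e-09), ITGA5 (-0.83 ± 0.10; adjusted p = 5.8e-07), ITGA6 (-0.54 ± 0.09; adjusted p = 2.9e-05) and ITGB1 (-0.43 ± 0.09; adjusted p = 0.00031) were lower with SCH772984 than with compound 1. ITGAE, higher than DMSO in all compound 1 libraries and lower with SCH772984, differed by -0.69 ± 0.14 between the inhibitors (adjusted p = 0.00021). ITGA7 (1.58 ± 0.48; adjusted p = 0.0069) and ITGAD (1.41 ± 0.45; adjusted p = 0.0097) were also higher. Both were tested only through SCH772984, where they were high, so these p-values cannot be read as support for a difference.

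Of the 18 calls, 6 were lost when 1 library was left out, 1 of them because ITGA7 no longer passed the filter on low counts without SCH772984 replicate 2 or 3. ITGB4 (-0.27; adjusted p = 0.017) was not called without compound 1 replicate 1 (0.067) or SCH772984 replicate 1 or 2 (0.075 and 0.073), and ITGA10 (-0.62; adjusted p = 0.049) not without compound 1 replicate 1 or 2 (0.29 and 0.076) or SCH772984 replicate 2 or 3 (0.13 and 0.15). LAMC3 (0.74; adjusted p = 0.018) was not called without replicate 2 of compound 1 (0.088) or of SCH772984 (0.098). LAMA4 (-0.84; adjusted p = 0.025) was not called without compound 1 replicate 2 (0.16) or SCH772984 replicate 2 or 3 (0.083 and 0.087), and ITGAD not without compound 1 replicate 1 or 3 (0.052 and 0.054) or SCH772984 replicate 3 (0.0512). Without compound 1 replicate 1, 15 of the 18 genes were called, with ITGAV at 0.41 in place of 0.54 and LAMC1 at 1.11 in place of 1.20, and the 18 log2 fold changes moved by between -0.32 (ITGA7) and 0.26 (ITGA10). LAMA3, LAMB3, ITGB2, ITGB8 and ITGAM did not pass the test between the inhibitors.

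The partners of integrins and laminins were read from lists of their known functions. These lists, and those of ERK output genes and markers, were chosen with earlier results of these data known. In the comparison of SCH772984 with DMSO 37.2% of all genes tested were called higher and 35.5% lower. Of 8 tested laminin receptors that are not integrins, SCH772984 raised 5 and lowered 3. SDC3, a heparan sulfate proteoglycan of the cell surface, went from 76.6 to 91.9 CPM to 390 to 415 CPM (2.25 ± 0.07; adjusted p = 4.1e-30) and BCAM, a receptor for the α5 chain, from 25.9 to 30.8 CPM to 105 to 129 CPM (2.00 ± 0.09; adjusted p = 1.3e-23). Dystroglycan (DAG1), which binds laminin on the cell surface and was named after its values were seen, went from 238 to 264 CPM to 944 to 965 CPM (1.91 ± 0.06; adjusted p = 3.1e-29). SDC1 (-1.22 ± 0.07; adjusted p = 7.2e-19) and CD44 (-0.50 ± 0.06; adjusted p = 2.4e-10) fell.

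Basement membrane partners had 6 tested genes, and SCH772984 raised all 6, beside 37.2% of all genes. SPARC passed the filter on low counts through its SCH772984 libraries, and the other 5 were all higher with a median of 0.87. Perlecan (HSPG2), a proteoglycan of the basement membrane, went from 156 to 168 CPM to 574 to 642 CPM (1.90 ± 0.06; adjusted p = 1.5e-28). SPARC, which binds collagen IV, went from 0.33 to 1.03 CPM to 4.36 to 5.23 CPM. Over all genes the median was 0.03. The other 8 genes of that list were not tested for want of counts.

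**Figure D5:**
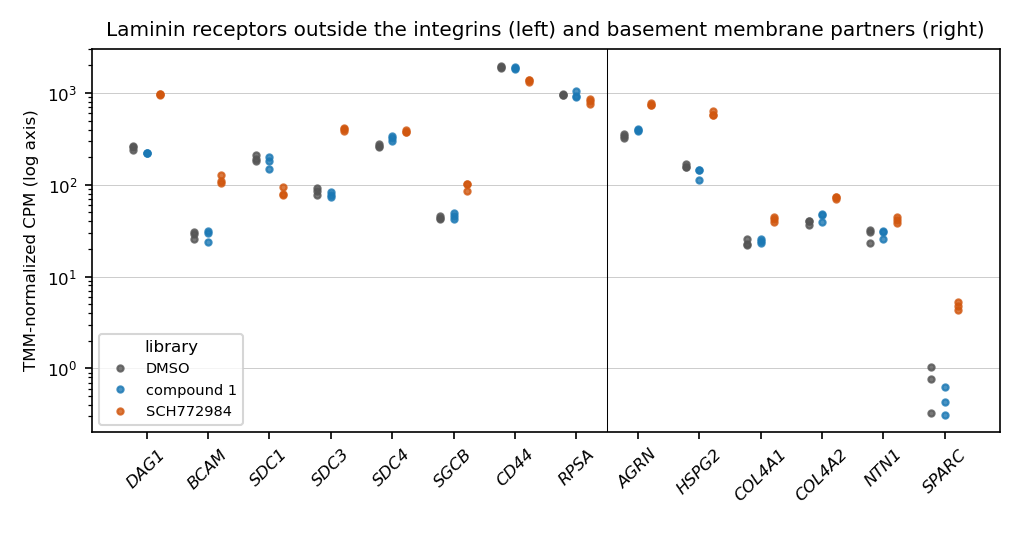
TMM-normalized CPM on a log axis, 1 point per library, of the tested laminin receptors outside the integrins (left of the line) and the tested basement membrane partners (right of the line). The SCH772984 points of DAG1, BCAM, SDC3 and HSPG2 lie above all DMSO and compound 1 points, and those of SDC1 and CD44 below them.

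Of 35 tested genes of integrin activation and focal adhesion, SCH772984 lowered 18 and raised 6, beside 35.5% and 37.2% of all genes, with a median of -0.35. FERMT1, a kindlin that activates integrins, went from 124 to 135 CPM to 24.4 to 26.9 CPM (-2.34 ± 0.08; adjusted p = 2.0e-28) and the adaptor PXN from 226 to 232 CPM to 63.2 to 69.1 CPM (-1.78 ± 0.07; adjusted p = 1.0e-26). LIMS2 (2.84 ± 0.16; adjusted p = 2.1e-20) and KANK1 (1.57 ± 0.31; adjusted p = 1.6e-05) rose. With library size alone 16 genes of the list were lower and 11 higher, and once the trend of each library with gene length was removed 23 and 5.

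Among 8 tested hemidesmosome and tetraspanin partners 4 were higher and 3 lower with SCH772984. The tetraspanin CD82 (2.66 ± 0.13; adjusted p = 3.3e-22) and DST (0.58 ± 0.06; adjusted p = 2.2e-11) rose, and COL17A1 (-0.76 ± 0.07; adjusted p = 5.6e-13) and CD9 (-0.24 ± 0.06; adjusted p = 0.00069) fell. The split of that list depended on scaling, with 4 higher and 1 lower by library size alone and 1 higher and 5 lower with the length trend removed. Of 13 tested ligands of other integrins, 9 were higher and 2 lower, but FN1, VTN, FBN1, FBLN5, ICAM1 and TNC passed the filter on low counts on the libraries of 1 treatment, with fewer than 3 of the other at its level. The other 7 had 4 higher and 2 lower with a median of 0.70, and the 7 with 10 counts in every library had 4 higher and 1 lower with a median of 0.30. Vitronectin (VTN), the ligand of αv with β5, went from 0.31 to 0.33 CPM to 5.10 to 7.60 CPM and fibrillin-1 (FBN1) from 0.72 to 1.75 CPM to 11.3 to 12.8 CPM. TGFB1 (-0.55 ± 0.14; adjusted p = 0.00067) and ADAM15 (-0.14 ± 0.06; adjusted p = 0.048) fell.

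Compound 1 lowered 3 of 36 tested focal adhesion genes, FLNA (-0.42 ± 0.06; adjusted p = 0.0048), CAV1 (-0.32 ± 0.07; adjusted p = 0.045) and ACTN4 (-0.29 ± 0.06; adjusted p = 0.045), and 1 of 8 hemidesmosome and tetraspanin partners, PLEC (-0.28 ± 0.06; adjusted p = 0.046), beside 0.864% of all genes tested. Without compound 1 replicate 1 these 4 genes were at -0.40, -0.31, -0.29 and -0.24 and all still called. FLNA, an actin crosslinker that binds integrin β tails, measured 1581, 1543 and 1492 CPM with DMSO and 1115, 1131 and 1196 CPM with compound 1. By edgeR 0 genes were called in the basement membrane, laminin receptor and ligand lists, where 2, 2 and 0 had an unadjusted p under 0.05. Without compound 1 replicate 1 the focal adhesion list had 12 genes lower and 0 higher, the hemidesmosome list 3 lower and 1 higher, the receptor list 2 lower and 1 higher, the basement membrane list 1 higher and the ligand list 1 lower, beside 9.56% of all genes called in that fit.

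Markers of other cell types moved with SCH772984 as well. The 10 fibroblast markers summed to 466 to 517 CPM with DMSO, 475 to 541 with compound 1 and 1037 to 1175 with SCH772984, nearly all of it COL1A2 (458 to 507 CPM with DMSO and 984 to 1114 with SCH772984), while FAP and THY1 were at 0 in all 9 libraries. The largest rises on that list were those of PDGFRB (0 to 0.22 CPM with DMSO, 5.40 to 6.82 with SCH772984) and COL1A1 (0.11 to 0.41 and 2.36 to 3.22 CPM), both tested only through SCH772984. The 8 endothelial markers summed to 31.2 to 37.5 CPM with DMSO, 31.7 to 38.5 with compound 1 and 3.21 to 4.32 with SCH772984, mostly ROBO4 (26.4 to 33.0 CPM with DMSO, 2.19 to 3.29 with SCH772984) besides CDH5 (2.87 to 4.42 and 0 to 0.27 CPM, tested only through DMSO), with KDR and ERG at 0 throughout. The 10 epithelial markers summed to 3541 to 3815 CPM with DMSO, 3035 to 3833 with compound 1 and 1202 to 1366 with SCH772984, mostly KRT8 and KRT18. Of the 5 tested, KRT8 (-1.69), KRT18 (-2.40) and CLDN4 (-0.66) fell, MUC1 rose from 3.98 to 5.58 CPM with DMSO to 25.9 to 40.8 CPM with SCH772984 (2.77 ± 0.18; adjusted p = 1.0e-13), and KRT19 did not pass the test (0.11 ± 0.07; adjusted p = 0.15). The 6 markers of mesenchymal-type carcinoma cells summed to 2445 to 2616 CPM with DMSO, 2520 to 2912 with compound 1 and 1969 to 2333 with SCH772984, mostly VIM, with TWIST1 at 0 throughout. Of the 3 tested, VIM (-0.23) and ZEB1 (-0.61) fell and SNAI2 rose from 3.98 to 4.31 CPM with DMSO to 15.7 to 18.8 CPM with SCH772984 (2.00 ± 0.17; adjusted p = 1.9e-14). The part of these shifts in the changes of integrin and laminin genes was not tested.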

How the data were processed

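The authors deposited 1 table of read counts per gene, whole numbers without normalization, for 9 libraries sequenced by Novogene. The submitters' processing notes name HISAT2 2.0.5, featureCounts 1.5.0-p3 and hg38, and the strand setting is not given in the sources used here. Gene coordinates and the deposited gene lengths, another column of the table, matched GENCODE release 29 for the 37 genes described, and 1 gene that the rule found is not reported here. Libraries were grouped by their labels.

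Each inhibitor was compared with DMSO, and SCH772984 with compound 1, in separate fits with edgeR 4.0.16 in R 4.3.3 (robust quasi-likelihood test, TMM, filterByExpr with a minimum count of 10 and a minimum total of 15). P-values were adjusted by the Benjamini-Hochberg method over all genes tested, and a gene was called at an adjusted p under 0.05. SE is the log2 fold change divided by the root of the F statistic. CPM and RPKM use TMM factors over all 9 libraries. Library totals set the precision of low counts, and intervals of count ratios are exact and binomial. The step was checked on simulated data.

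Genes given library by library were those called with a change of at least 2-fold in any comparison, the 6 highest in DMSO by RPKM and those called, or with the smallest p, with compound 1. From each list the 2 largest rises and falls among calls, and all calls with compound 1, were named, and DAG1, COL1A2, KRT19, CLDN4 and markers at 0 were added after their values were seen. The gene set and lists were chosen with earlier results of these data known. Of the 26 listed ligand genes 24 matched by name. Promoter windows came from RefSeq. Alternatives covered scaling (RLE, library size), filters, 1 fit of all libraries, DESeq2 1.42.0, gene length (a spline with 5 degrees of freedom) and leaving out each library.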

Additional observations from a re-analysis of the deposited data

How the results depend on the processing

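With SCH772984 against DMSO, 10 genes higher became 9 to 10 and 8 lower became 6 to 8 when 1 library was left out, and between the inhibitors 9 higher became 7 to 9 and 9 lower 6 to 9. Under the 2-fold rule 1 gene was lower with SCH772984 than with DMSO and 1 than with compound 1. With compound 1, 1 gene was higher at an unadjusted p under 0.05. At an adjusted p under 0.05 there were 0, and 0 to 2 when 1 library was left out. Expressed genes numbered 12 at 1 RPKM and 19 to 21 when 1 DMSO library was left out. No call changed direction under any alternative run. Calls lost under other settings, beside those given above, were LAMA4 with DESeq2 (adjusted p = 0.075) and ITGAM with DESeq2 (0.083), without a filter on low counts (0.063) and with the length trend removed (0.055), and between the inhibitors ITGB4, ITGA10 and LAMA4 with library size alone (0.22, 0.12 and 0.059), LAMC3 with the length trend removed (0.056), ITGB4 and ITGA10 with 10 counts required in every library (0.081 and 0.074), and ITGA10 with protein-coding genes only (0.052) and DESeq2 (0.077). The causes were not tested. Other calls were lost because a gene fell under the filter, ITGA7, ITGAD and ITGAM against DMSO and ITGA7 and ITGAD between the inhibitors with 10 counts required in every library, and ITGA7 in both with all libraries in 1 fit.

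Values that changed sign were all of genes not called. With the length trend removed ITGB8 was -0.0343 with SCH772984 against DMSO, 0.00253 with compound 1 and -0.0270 between the inhibitors. With library size alone ITGB5 was 0.00354 and ITGB8 0.00116 with compound 1. When 1 library was left out, LAMB3 ranged from -0.165 to 0.362 with SCH772984, and ITGAM from -0.0787 to 0.570 between the inhibitors. With compound 1 the ranges were -0.0171 to 0.0914 for ITGA3, -0.149 to 0.0211 for ITGB4, -0.113 to 0.0185 for ITGB5, -0.132 to 0.0302 for LAMA2, -0.289 to 0.234 for LAMB3, -0.189 to 0.211 for LAMC3, -0.180 to 0.178 for ITGB8, -0.157 to 0.340 for LAMA4 and -0.302 to 0.544 for LAMA3.

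Replicate numbers showed little pairing of the libraries. The correlations of same-numbered deviations were 0.0018 to 0.044 with SCH772984 and DMSO, -0.019 to 0.11 with compound 1 and DMSO and -0.089 to 0.13 between the inhibitors. With the replicate block the counts were 10 higher and 8 lower for SCH772984 against DMSO, 0 and 0 for compound 1, and 9 and 8 between the inhibitors, where ITGA10 was -0.59 (adjusted p = 0.0514). Over all genes the block moved the calls with compound 1 from 111 to 412. Not every library correlated best with its own number.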
